A study of Mus musculus with 15 samples.

Results

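The 10 genes described here take fatty acids from lipoproteins into the cell and hold them there: Lpl, Gpihbp1 and Angptl4 act in lipoprotein lipolysis, Cd36, Slc27a1 and Slc27a4 in uptake, Acsl1 in activation, and Fabp3, Fabp4 and Fabp5 in binding. They were taken as a list of mouse symbols, matched through the Ensembl identifiers of the count files, and are 10 of the 46603 genes counted. Lipoprotein lipase releases fatty acids from the triglycerides of circulating lipoproteins, membrane proteins aid their entry, acyl-CoA synthetases trap them as acyl-CoA, and small cytosolic proteins bind them. Adipocytes use this route to fill their lipid droplets, and many of its genes are known targets of the nuclear receptor PPARG.

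RNA-Seq was performed on mouse embryonic fibroblasts (MEFs) from wild-type BALB/c embryos of 10.5 days, which the study describes as a heterogeneous population. Cells before treatment (MEFD0), untreated cells in growth medium at day 3 and day 5 (MEFD3min and MEFD5min) and treated cells at the same days (MEFD3plu and MEFD5plu) were sampled 3 times each, as replicates 1, 3 and 4, giving 15 samples. Treatment added rosiglitazone, a PPARG agonist, at 10 µM, dexamethasone at 1 µM, insulin at 10 µg/mL and the phosphodiesterase inhibitor IBMX at 0.5 mM to DMEM with serum for 3 days, and MEFD5plu cells were in growth medium without these factors from day 3 to day 5. No label says that replicates came from separate cultures or embryos, so p-values measure the spread between these samples, which may be technical. All groups share strain, genotype and basal medium, and time in culture differs between days 0, 3 and 5. MEFD5plu against MEFD3plu, and the interaction, combine more time since treatment began with removal of its factors, and these cannot be told apart.

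The samples held 24030558 to 37281126 counts. A marker was taken as above the floor of 3 counts in a condition if at least 1 of the 3 samples exceeded it. All 10 fibroblast markers were above the floor in every condition, with a summed level of 10676 to 36034 CPM (counts scaled to library size, with TMM factors) that was highest in MEFD3min. Of 8 adipocyte markers, 7 were above the floor in MEFD3plu and in MEFD5plu, where their sum was 1469 to 3299 CPM against 2.28 to 7.16 CPM in the other conditions, and Lep was at the floor throughout. Of 10 endothelial markers 5 to 7 were above the floor in each condition, with a sum of 1.31 to 19.1 CPM that was lowest in MEFD0. By this rule a mean could still lie below the floor, as for Pecam1 at 0.066 CPM in MEFD0. Emcn had a mean of 5.52 to 13.3 CPM in the 4 later conditions, and the next highest mean was 1.95 CPM (Cdh5 in MEFD5min). Of 10 macrophage markers 5 to 7 were above it, with a sum of 26.1 to 70.3 CPM, mostly Mertk, and Adgre1, Itgam and Fcgr1 were at the floor. Of 10 muscle markers 2 to 4 were above it (1.12 to 7.71 CPM, with Myod1, Myog and Ckm at the floor), and of 8 epidermal markers 3 to 5 (3.15 to 9.97 CPM, with Krt5, Krt1 and Dsg3 at the floor). The adipocyte markers were high in the treated conditions alone, and their part in the results below was not tested. In bulk RNA a change in the share of cells that express a gene cannot be told apart from a change in RNA per cell.

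Treated cells carried far more RNA of this route than untreated cells. The 10 genes held 1.11% to 1.31% of all counts in MEFD3plu and 1.02% to 1.18% in MEFD5plu. They held 0.0262% to 0.0276% in MEFD0, 0.0153% to 0.0171% in MEFD3min and 0.0196% to 0.0209% in MEFD5min. Of the 10, 9 passed the filter on low counts and were tested, and Gpihbp1 was not. A gene was called upregulated or downregulated at an adjusted p under 0.05 in the quasi-likelihood test of edgeR, with Benjamini-Hochberg adjustment over all 15997 genes tested. Changes are given as log2 of the fold change with the standard error of the fit. At day 3, 7 of the 9 were upregulated in treated cells, against 28.0% of all genes tested, and 1 was downregulated, against 28.0% of all genes. In a fit with a replicate block, 2 were downregulated at day 3. That fit called 9452 of all 15997 genes in either direction, 50.1% of them higher and the rest lower. At day 5, 7 of the 9 were upregulated, against 26.3% of all genes, and 0 were downregulated, against 24.2%. By DESeq2 the number downregulated at day 5 was also 0, and by edgeR no member was lower at day 5 with an unadjusted p under 0.05. The median log2 fold change of the 9 was 5.83 at day 3 and 4.40 at day 5, while the median of all genes tested was -0.00057 and 0.010. Acsl1, Angptl4, Cd36, Fabp4, Fabp5 and Lpl were upregulated on both days.

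**Figure D1:**
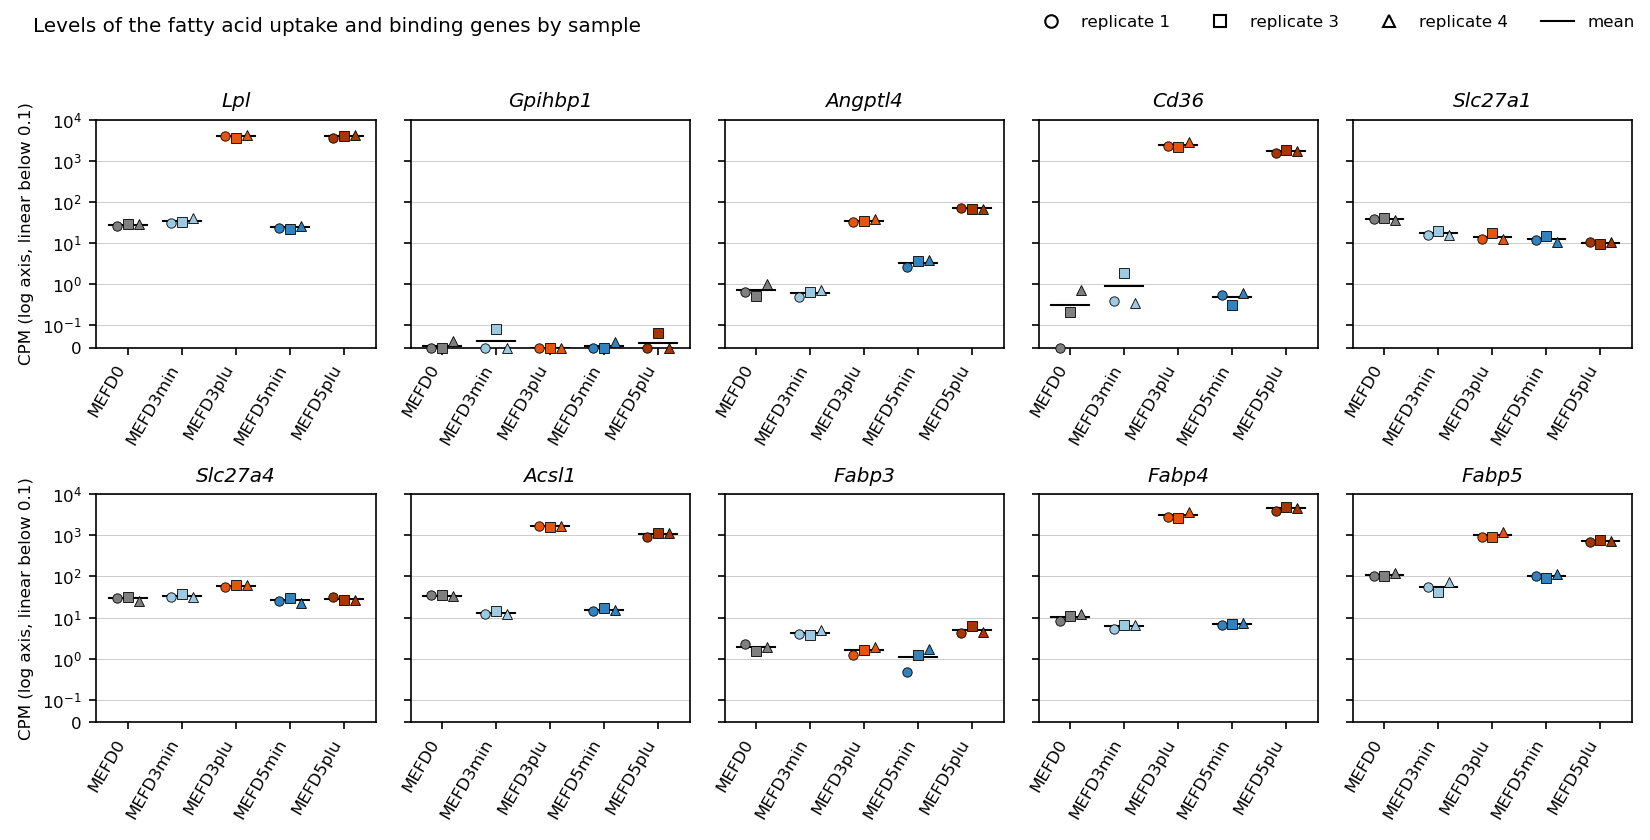
Level of each of the 10 genes in each of the 15 samples, in CPM on an axis that is logarithmic above 0.1 and linear below. Symbols are replicates and lines the means of 3; Lpl, Cd36, Acsl1 and Fabp4 lie at 933 CPM or more in all 6 treated samples and at 39.8 CPM or less in all 9 others, while Gpihbp1 lies near 0 throughout.

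**Figure D2:**
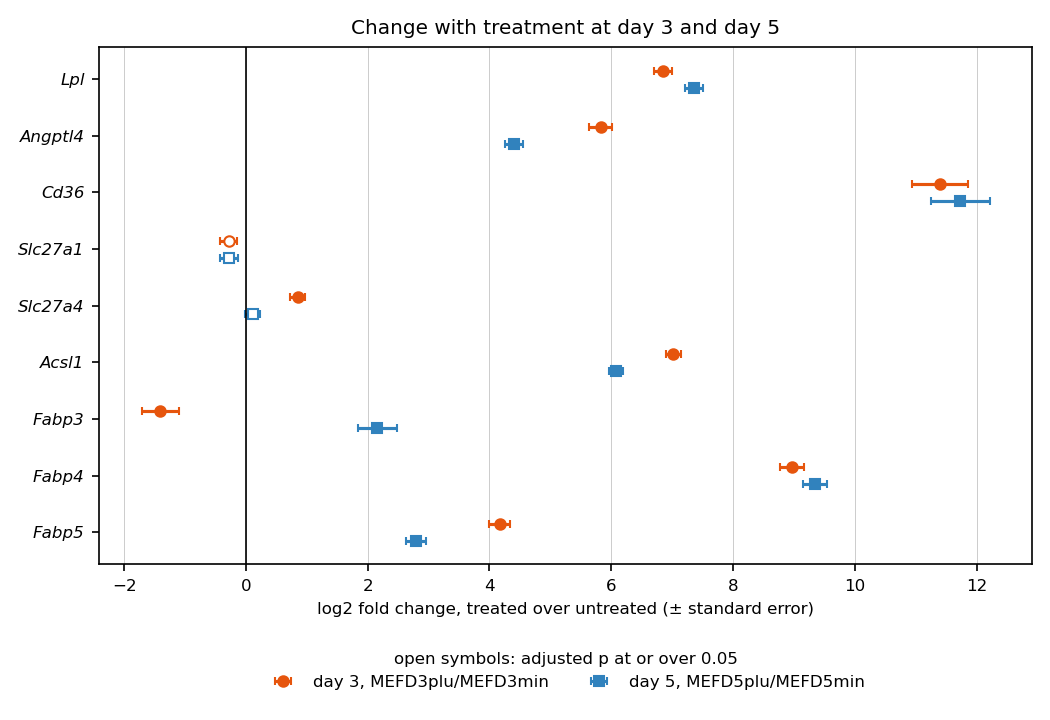
Log2 fold change of treated over untreated cells at day 3 (circles) and day 5 (squares) for the 9 genes tested, with standard errors as bars. Open symbols did not pass the test; Fabp3 lies at -1.41 on day 3 and at 2.15 on day 5.

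Lpl (chr8:68880491-68907448, plus strand, GRCm38) encodes lipoprotein lipase, the enzyme that starts the route. Its level was 25.5, 28.7 and 28.0 CPM in MEFD0 (replicates 1, 3 and 4), 30.02, 32.1 and 39.8 CPM in MEFD3min, and 23.2, 22.2 and 26.4 CPM in MEFD5min. In treated cells it was 3925, 3656 and 4211 CPM at day 3 and 3535, 4071 and 4168 CPM at day 5. All treated samples thus lay far above all untreated ones, and both treated groups overlapped each other. The fold change was 116 at day 3 (log2 6.85, standard error 0.14, adjusted p = 9.57e-16) and 164 at day 5 (log2 7.36, standard error 0.15, adjusted p = 1.33e-15, edgeR with Benjamini-Hochberg adjustment). MEFD3plu and MEFD5plu had means of 3931 ± 277 and 3925 ± 341 CPM (SD, n = 3), with no difference called between them (adjusted p = 0.987 by the same edgeR test). The day 3 change was smaller than the day 5 change by a log2 of 0.50 (interaction adjusted p = 0.0158, edgeR), a call that scaling by total counts alone ended (adjusted p = 0.0583).

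Lpl also moved in untreated cells, by little. It was higher in MEFD3min than in MEFD0 (log2 0.31, adjusted p = 0.0286 by edgeR) and lower in MEFD5min than in MEFD3min (log2 -0.50, adjusted p = 0.002). The first of these calls was lost in a fit of the samples compared only (adjusted p = 0.0662), under total counts (0.111), and without MEFD0 replicate 1, MEFD0 replicate 4 or MEFD3min replicate 4 (adjusted p = 0.111, 0.0508 and 0.157, edgeR). MEFD3min was also the condition with the highest sum of fibroblast markers.

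Gpihbp1 (chr15:75596628-75599481, plus strand) encodes the protein that carries lipoprotein lipase to the inner face of capillaries and is known from endothelial cells. Its counts were 0, 0 and 1 in MEFD0, 0, 3 and 0 in MEFD3min, and 0, 0 and 0 in MEFD3plu. They were 0, 0 and 1 in MEFD5min and 0, 2 and 0 in MEFD5plu. No sample exceeded the floor of 3 counts, which is 0.0795 to 0.117 CPM in these libraries and covers counting error only, so expression of Gpihbp1 above it was not detectable at this depth. Of the 10 endothelial markers, 5 to 7 were above the floor in at least 1 sample of each condition. Among them was Emcn at a mean of 5.52 to 13.3 CPM in the 4 later conditions, while Tie1, Cldn5 and Erg were at the floor in all 5.

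Angptl4 (chr17:33773750-33781830, minus strand) encodes a secreted inhibitor of lipoprotein lipase. Its level was 0.617, 0.504 and 1.00 CPM in MEFD0, 0.470, 0.646 and 0.706 CPM in MEFD3min, and 33.0, 33.6 and 37.6 CPM in MEFD3plu. At day 5 it was 2.60, 3.54 and 3.73 CPM in untreated and 71.9, 68.3 and 68.2 CPM in treated cells. Treated samples lay above untreated ones without overlap on both days, and the level was higher at day 5 than at day 3 in both arms. The fold change with treatment was 56.9 at day 3 (log2 5.83, standard error 0.19, adjusted p = 1.21e-13) and 21.2 at day 5 (log2 4.40, standard error 0.15, adjusted p = 4.63e-13, edgeR with Benjamini-Hochberg adjustment). The change at day 3 exceeded that at day 5 by a log2 of 1.43 (adjusted p = 0.000212, edgeR). Untreated cells rose 5.38-fold from day 3 to day 5 (log2 2.43, adjusted p = 1.01e-07) and treated cells rose by a log2 of 1.00 (adjusted p = 3.32e-06, edgeR). MEFD3min and MEFD0 did not differ by the test (log2 -0.23, adjusted p = 0.494), and this difference was 0.13 without MEFD0 replicate 4.

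Cd36 (chr5:17781690-17888801, minus strand) encodes a membrane glycoprotein that aids the uptake of long-chain fatty acids. Its counts were 0, 8 and 25 in MEFD0 and 12, 67 and 10 in MEFD3min, that is 0, 0.212 and 0.698 CPM and 0.376, 1.88 and 0.336 CPM. MEFD5min had 0.531, 0.312 and 0.595 CPM. In treated cells the level was 2310.2, 2122 and 2896 CPM at day 3 and 1522, 1829 and 1744 CPM at day 5. Of the 9 genes tested, Cd36 had the largest log2 fold changes, 11.40 at day 3 (standard error 0.46, adjusted p = 2.01e-12) and 11.73 at day 5 (standard error 0.48, adjusted p = 4.2e-12, edgeR with Benjamini-Hochberg adjustment). The size of the day 3 value rests on few counts in MEFD3min: without replicate 3 of that condition, which held the 67 counts, it was 12.73. The interaction was -0.34 (adjusted p = 0.717) and turned to 1.00 (adjusted p = 0.216, edgeR) without the same sample.

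The samples of MEFD5plu all lay below those of MEFD3plu for Cd36, yet the difference did not pass the test over all samples (log2 -0.52, standard error 0.28, adjusted p = 0.113, edgeR). It did pass in a fit of the samples compared only (log2 -0.56, adjusted p = 0.000492), without the filter on low counts (log2 -0.55, adjusted p = 3.53e-07) and without MEFD3min replicate 3 (log2 -0.53, adjusted p = 0.0151). Untreated levels at day 3 and day 0 differed by a log2 of 1.49 (adjusted p = 0.0704), which was 0.15 (adjusted p = 0.868) without MEFD3min replicate 3. It was 2.88 (adjusted p = 0.0105) without MEFD0 replicate 4, and 1.84 without MEFD3min replicate 1 or replicate 4 (adjusted p = 0.0292 and 0.0199, edgeR). Without the filter on low counts it was 1.501 and passed (adjusted p = 2.31e-07, edgeR). The difference between MEFD5min and MEFD3min (log2 -0.86, adjusted p = 0.29) passed without the filter (log2 -0.90, adjusted p = 0.0016, edgeR) and turned to 0.47 without MEFD3min replicate 3, and that between MEFD5min and MEFD0 (log2 0.63, adjusted p = 0.538) was 2.02 without MEFD0 replicate 4.

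The stretch before a RefSeq start of Cd36 is shown because this gene had the largest change. This start, chr5:17835896, lies inside the annotated gene, whose 5′ end is at 17888801, and its use in these cells was not tested. The stretch is chr5:17835897-17836146 (GRCm38.p6, written 5′ to 3′ on the minus strand), in lower case, with a match to AGGTCA, the core hexamer of nuclear receptor sites, in capitals on the opposite strand.
Cd36 upstream: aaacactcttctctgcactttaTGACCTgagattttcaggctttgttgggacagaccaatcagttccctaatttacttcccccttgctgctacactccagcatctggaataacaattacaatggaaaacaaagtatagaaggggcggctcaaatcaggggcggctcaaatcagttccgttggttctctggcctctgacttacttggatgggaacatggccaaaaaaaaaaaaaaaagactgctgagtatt
The match lies 228 to 223 bases before the start. Of 32851 mouse promoter windows of the same 250 bases, 14.0% hold AGGTCA on either strand, so a match is a description only. Windows were found for 5 of the 10 genes, 8 windows in all, and the other motifs searched on both strands were TTNNGCAA of C/EBP proteins (9.56% of all windows), TGACG of cAMP response sites (17.8%), AGAACA of the glucocorticoid receptor (16.1%) and a direct repeat of the core hexamer with 1 base between (0.0335%). Besides the Cd36 match, the 8 windows held 1 match, a TGACG at 149 to 145 bases before the Fabp3 start.

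Slc27a1 and Slc27a4 encode fatty acid transport proteins, membrane proteins that also have acyl-CoA synthetase activity. Slc27a1 (chr8:71568882-71587302, plus strand) was at 37.9, 40.0 and 36.1 CPM in MEFD0, 15.5, 19.9 and 15.5 CPM in MEFD3min and 12.7, 17.0 and 12.2 CPM in MEFD3plu. At day 5 it was at 11.6, 14.4 and 10.6 CPM in untreated and 10.6, 9.25 and 10.3 CPM in treated cells. Every later sample lay below the MEFD0 samples, and treated and untreated samples overlapped at day 3 but not at day 5. Untreated cells fell from day 0 to day 3 (log2 -1.16, standard error 0.14, adjusted p = 1.45e-06) and to day 5 (log2 -1.64, standard error 0.14, adjusted p = 6.86e-08, edgeR with Benjamini-Hochberg adjustment). The difference between treated and untreated cells was a log2 of -0.28 at day 3 (adjusted p = 0.103) and -0.27 at day 5 (adjusted p = 0.128), and neither passed the edgeR test. In a fit with a replicate block the day 3 value was -0.28 with an adjusted p of 0.0403 (edgeR), and it passed without MEFD3plu replicate 3 (log2 -0.45, adjusted p = 0.0146, edgeR). The day 5 value passed under total counts (log2 -0.44, adjusted p = 0.0282) and without MEFD5min replicate 4 (log2 -0.41, adjusted p = 0.0404, edgeR).

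From day 3 to day 5, Slc27a1 fell in untreated cells (log2 -0.48, adjusted p = 0.0116) and in treated cells (log2 -0.47, adjusted p = 0.00886, edgeR). The untreated call was lost under total counts (adjusted p = 0.0599) and without MEFD3min replicate 3 or MEFD5min replicate 4 (adjusted p = 0.0625 and 0.0599), and the treated call without MEFD3plu replicate 3 (adjusted p = 0.0768, edgeR). Of the 9 genes tested, Slc27a1 was the one called in neither treated against untreated comparison of the main fit, which had no replicate block.

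Slc27a4 (chr2:29802634-29817522, plus strand) was at 30.5, 32.4 and 24.6 CPM in MEFD0, 31.3, 37.6 and 30.9 CPM in MEFD3min and 56.4, 62.8 and 60.7 CPM in MEFD3plu. At day 5 it was at 25.4, 30.2 and 22.9 CPM in untreated and 31.4, 27.3 and 26.0 CPM in treated cells. The MEFD3plu samples stood above all 12 others, and treated and untreated samples overlapped at day 5. The gene was 1.80-fold higher with treatment at day 3 (log2 0.85, standard error 0.12, adjusted p = 1.33e-05), and at day 5 the log2 fold change was 0.11 (standard error 0.12, adjusted p = 0.475, edgeR with Benjamini-Hochberg adjustment). These changes differed between the days by a log2 of 0.74 (adjusted p = 0.00204), and treated cells fell 2.13-fold from day 3 to day 5 (log2 -1.09, adjusted p = 9.39e-07, edgeR). Untreated cells also fell from day 3 to day 5 (log2 -0.35, adjusted p = 0.0297). That call was lost in a fit of the samples compared only (adjusted p = 0.082), under total counts (0.149) and without MEFD3min replicate 3, MEFD5min replicate 1 or MEFD5min replicate 4 (adjusted p = 0.124, 0.0856 and 0.134, edgeR). Per kilobase of transcript, the ratio of Slc27a1 to Slc27a4 was 1.91 ± 0.193 (SD, n = 3) in MEFD0, 0.738 ± 0.0263 in MEFD3min and 0.337 ± 0.0519 in MEFD3plu. At day 5 it was 0.676 ± 0.0145 in untreated cells of day 5 and 0.519 ± 0.0478 in MEFD5plu. Slc27a1 was thus the more abundant of this pair in MEFD0 and the less abundant in each of the other conditions.

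Acsl1 (chr8:46471037-46536051, plus strand) encodes the long-chain acyl-CoA synthetase that activates fatty acids in adipocytes. It was at 34.5, 34.7 and 32.5 CPM in MEFD0, 11.8, 14.2 and 12.2 CPM in MEFD3min and 1657, 1620.3 and 1690.1 CPM in MEFD3plu. At day 5 it was at 14.8, 17.1 and 15.03 CPM in untreated and 933, 1120.3 and 1124 CPM in treated cells. No groups overlapped between treated and untreated cells or between both treated days. The fold change with treatment was 129.8 at day 3 (log2 7.02, standard error 0.12, adjusted p = 1.21e-16) and 67.8 at day 5 (log2 6.08, standard error 0.12, adjusted p = 1.27e-15, edgeR with Benjamini-Hochberg adjustment). The difference between the days was a log2 of 0.94 (adjusted p = 2.93e-05), and treated cells fell from day 3 to day 5 (log2 -0.64, adjusted p = 1.29e-05, edgeR).

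Without treatment, Acsl1 fell below its day 0 level, by a log2 of 1.41 at day 3 (adjusted p = 1.97e-09) and of 1.12 at day 5 (adjusted p = 8.91e-08, edgeR). It rose slightly from day 3 to day 5 (log2 0.29, adjusted p = 0.0271), a call lost in a fit of the samples compared only (adjusted p = 0.102), without the filter (0.0876), and without MEFD3min replicate 1, MEFD3min replicate 4 or MEFD5min replicate 3 (adjusted p = 0.112, 0.0652 and 0.116, edgeR). Exons of Gm45244 on the other strand cover 9.91% of the exon bases of Acsl1, and with the library kit given as unstranded in the labels and as stranded in the methods of the study, it is not known whether reads of this stretch were assigned by strand.

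Acsl1 and Slc27a1 lie on the same chromosome, and their upstream stretches are shown as a pair of which 1 gene rose with treatment and the other did not pass the test. They are chr8:46470787-46471036 for the first of 2 Acsl1 starts and chr8:71568621-71568870 for the first Slc27a1 start (GRCm38.p6, plus strand), all in lower case because none of the motifs was found.
Acsl1 upstream: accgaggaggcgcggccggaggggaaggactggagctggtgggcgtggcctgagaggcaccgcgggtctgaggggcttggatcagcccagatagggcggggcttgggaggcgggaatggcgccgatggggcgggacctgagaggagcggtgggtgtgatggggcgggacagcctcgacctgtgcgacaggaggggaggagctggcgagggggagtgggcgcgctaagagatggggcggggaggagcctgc
Slc27a1 upstream: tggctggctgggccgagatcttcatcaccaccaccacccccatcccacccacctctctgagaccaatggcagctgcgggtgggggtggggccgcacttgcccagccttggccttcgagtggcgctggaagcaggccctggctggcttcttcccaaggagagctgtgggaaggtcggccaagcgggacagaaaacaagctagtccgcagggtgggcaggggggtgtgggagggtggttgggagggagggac
The Acsl1 stretch is 72.0% G and C with 20 CpG pairs and the Slc27a1 stretch 66.4% with 8, while the Cd36 stretch is 43.2% with 3 and the median over all windows is 52.4%. The values depend on the start: the window of the second Acsl1 start is 48.4% with 2, and the other Slc27a1 windows are 60.8% with 12 and 58.4% with 10. Use of these starts was not tested.

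Fabp3, Fabp4 and Fabp5 encode small cytosolic proteins that bind fatty acids, named after heart, adipose tissue and epidermis. Fabp4 and Fabp5 lie near each other on chromosome 3 and Fabp3 on chromosome 4. Over their aligned coding bases, Fabp3 and Fabp4 were identical at 63.6%, Fabp4 and Fabp5 at 59.8% and Fabp3 and Fabp5 at 55.1% (GENCODE M21 transcripts). The first 90 coding bases of each are shown because they bear on how far reads of the 3 genes can be told apart. They span 2 exons, at chr3:10206106-10208511 for Fabp4 (minus strand), chr3:10012640-10014981 for Fabp5 (plus strand) and chr4:130308778-130312307 for Fabp3 (plus strand). Capitals in Fabp3 and Fabp5 mark bases identical to Fabp4 in the alignment, and capitals in Fabp4 mark bases identical in both.
Fabp4 coding start: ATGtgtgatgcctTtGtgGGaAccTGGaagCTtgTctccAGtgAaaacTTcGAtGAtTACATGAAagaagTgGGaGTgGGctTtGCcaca
Fabp5 coding start: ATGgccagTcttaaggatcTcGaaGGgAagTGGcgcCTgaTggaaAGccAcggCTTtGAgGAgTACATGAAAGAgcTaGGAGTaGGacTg
Fabp3 coding start: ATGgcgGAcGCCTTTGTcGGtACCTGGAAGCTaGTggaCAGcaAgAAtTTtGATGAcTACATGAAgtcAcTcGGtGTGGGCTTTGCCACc
Over all annotated transcripts of each gene, no stretch of 50 bases of Fabp4 was found in another annotated gene, against 37.3% of the stretches of Fabp3 and 5.48% of those of Fabp5.

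Fabp4 (chr3:10204088-10208576, minus strand) was at 8.27, 10.8 and 12.0 CPM in MEFD0, 5.20, 6.51 and 6.66 CPM in MEFD3min and 6.54, 6.78 and 7.43 CPM in MEFD5min. In treated cells it was at 2849, 2658 and 3671 CPM at day 3 and 4020.4, 4889 and 4655 CPM at day 5. All samples of MEFD5plu lay above those of MEFD3plu, and both lay above all others. The fold change with treatment was 499 at day 3 (log2 8.96, standard error 0.20, adjusted p = 1.47e-15) and 653 at day 5 (log2 9.35, standard error 0.20, adjusted p = 2.41e-15, edgeR with Benjamini-Hochberg adjustment). The interaction was -0.39 (adjusted p = 0.146). It passed without the filter (log2 -0.41, adjusted p = 0.0358), with the replicate block (log2 -0.39, adjusted p = 0.0476) and without MEFD3plu replicate 4 (log2 -0.54, adjusted p = 0.0345, edgeR). Treated cells rose from day 3 to day 5 (log2 0.56, adjusted p = 0.00182), and untreated cells were below MEFD0 at day 3 (log2 -0.76, adjusted p = 0.000539) and at day 5 (log2 -0.58, adjusted p = 0.00593, edgeR).

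Fabp5 (chr3:10012548-10016607, plus strand) had the highest level of the 3 in cells without treatment. It was at 104, 105 and 124 CPM in MEFD0, 54.4, 42.5 and 71.9 CPM in MEFD3min and 103, 94.0 and 115 CPM in MEFD5min. In treated cells it was at 921, 892 and 1214 CPM at day 3 and 681, 769.7 and 722 CPM at day 5. The fold change was 17.9 at day 3 (log2 4.16, standard error 0.18, adjusted p = 3.23e-12) and 6.95 at day 5 (log2 2.80, standard error 0.17, adjusted p = 5.63e-10, edgeR with Benjamini-Hochberg adjustment), a difference of 1.37 on the log2 scale (adjusted p = 8.06e-05). Untreated cells fell to day 3 (log2 -0.98, adjusted p = 4.26e-05) and were higher again at day 5 than at day 3 (log2 0.89, adjusted p = 0.000221), with no difference called between MEFD5min and MEFD0 (log2 -0.09, adjusted p = 0.664, edgeR). Treated cells fell from day 3 to day 5 (log2 -0.48, adjusted p = 0.0125), a call lost without MEFD3plu replicate 4 (log2 -0.33, adjusted p = 0.0816, edgeR). This sample had the highest level of Fabp5, Fabp4, Cd36 and Lpl in its condition.

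Gm6166 is a processed pseudogene (chr9:57483963-57484371, GRCm38) that holds 5.10% of the 3611 stretches of 50 bases in all annotated Fabp5 transcripts. Reads that lie wholly within shared stretches cannot be told apart. The principal Fabp5 transcript has 987 bases, and the share within it alone was not computed. Gm6166 had 575 to 14705 counts per sample, which was 31.5% to 45.6% of the Fabp5 count. The share was 44.0% ± 2.23 in MEFD0, 39.0% ± 1.45 in MEFD3min and 42.2% ± 2.13 in MEFD5min, and lower in treated cells, at 33.0% ± 1.38 in MEFD3plu and 34.6% ± 0.424 in MEFD5plu (SD, n = 3). Gm6166 was upregulated with treatment by a log2 of 3.93 at day 3 (adjusted p = 1.37e-11) and 2.51 at day 5 (adjusted p = 5.11e-09, edgeR). Over the 15 samples its log2 CPM had a Pearson's r of 0.998 with that of Fabp5, in libraries and treatments that both share. With both counts added, an alternative chosen after seeing the data, the log2 fold change of Fabp5 was 4.10 at day 3 and 2.72 at day 5.

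**Figure D3:**
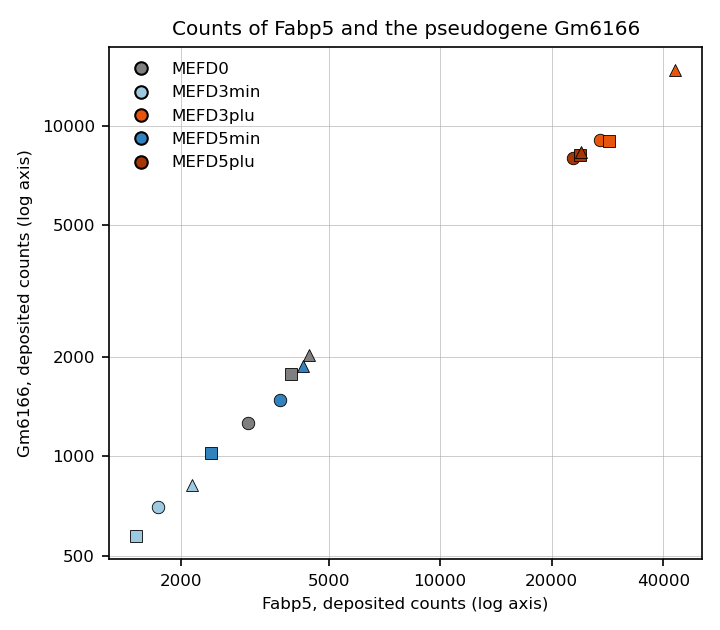
Deposited counts of Fabp5 and of the pseudogene Gm6166 in the 15 samples, both axes logarithmic, with colour for condition and circles, squares and triangles for replicates 1, 3 and 4. The points lie along a line, from 1515 and 575 counts in MEFD3min replicate 3 to 43046 and 14705 counts in MEFD3plu replicate 4.

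Fabp3 (chr4:130308595-130315463, plus strand) was low throughout and moved in opposite directions on the 2 days. It was at 2.23, 1.51 and 1.93 CPM in MEFD0, 3.95, 3.82 and 4.98 CPM in MEFD3min and 1.19, 1.63 and 1.95 CPM in MEFD3plu. At day 5 it was at 0.475, 1.21 and 1.68 CPM in untreated and 4.29, 6.22 and 4.46 CPM in treated cells. Treated samples lay below untreated ones at day 3 and above them at day 5, without overlap on either day. The log2 fold change was -1.41 at day 3 (standard error 0.31, adjusted p = 0.000914) and 2.15 at day 5 (standard error 0.32, adjusted p = 3.12e-05), and the interaction was -3.56 (standard error 0.45, adjusted p = 5.71e-06, edgeR with Benjamini-Hochberg adjustment). Both arms changed between the days: untreated cells fell (log2 -1.92, adjusted p = 0.000124) and treated cells rose (log2 1.64, adjusted p = 0.000195, edgeR). MEFD3min was above MEFD0 (log2 1.17, adjusted p = 0.003), and MEFD3min and MEFD5plu did not differ by the test (log2 0.23 higher in MEFD5plu, adjusted p = 0.508, edgeR).

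MEFD5min and MEFD0 differed for Fabp3 by a log2 of -0.75 (adjusted p = 0.0792). That value passed by DESeq2 (adjusted p = 0.0401), without the filter (0.0127), with the replicate block (0.0436) and without MEFD5min replicate 4 (log2 -1.24, adjusted p = 0.0114, edgeR). Exons on the other strand, of Gm10570 and Zcchc17, cover 19.6% of the exon bases of Fabp3, and 29.2% of its 50-base stretches occur in Fabp3-ps1, a pseudogene with at most 8 counts in a sample. The labels name a library kit that does not mark strand and the methods of the study a stranded one, and the strand setting of the counting is not given in the sources used here, so the Fabp3 values are uncertain.

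Among the 3 binding proteins, the main transcript changed with treatment. Per kilobase of transcript, Fabp5 made up 89.1% ± 0.695 of the 3 in MEFD0, 82.2% ± 3.35 in MEFD3min and 92.1% ± 0.853 in MEFD5min (SD, n = 3). Fabp4 made up 76.9% ± 0.338 in MEFD3plu and 87.2% ± 0.528 in MEFD5plu, with Fabp5 at 23.0% ± 0.33 and 12.7% ± 0.528. In MEFD3plu Fabp4 was 3.34 ± 0.0627 times Fabp5 and in MEFD5plu 6.87 ± 0.32 times. No sample of the treated conditions overlapped any other sample in these shares. With Gm6166 added to Fabp5, Fabp5 made up 28.5% ± 0.298 in MEFD3plu and 16.4% ± 0.677 in MEFD5plu.

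**Figure D4:**
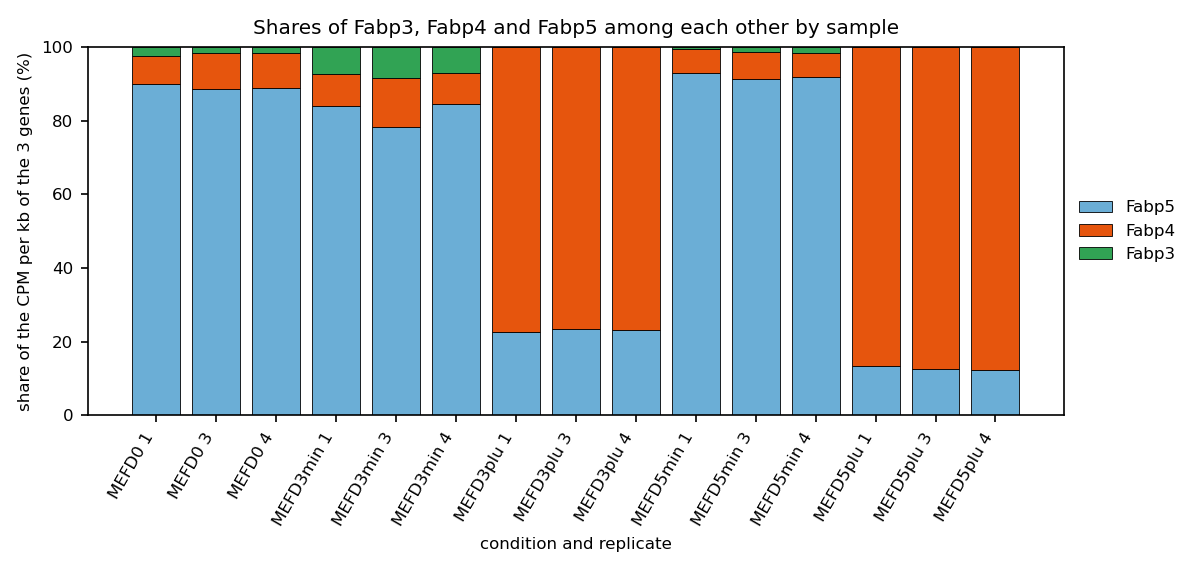
Share of Fabp5, Fabp4 and Fabp3 in the sum of their CPM per kilobase of transcript, in percent, for each of the 15 samples. Fabp5 is 78.3% to 93.0% of the sum in the 9 samples without treatment, and Fabp4 is 76.6% to 87.6% in the 6 treated samples.

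Compared per kilobase of transcript, the order of the genes differed between the conditions. In MEFD0, Fabp5 led with 112 ± 11.5 CPM per kilobase (SD, n = 3), then came Slc27a1 with 13.6 ± 0.70 and Fabp4 with 11.5 ± 2.11, and Angptl4 and Cd36 were lowest of the genes tested with 0.214 ± 0.0794 and 0.0892 ± 0.105. In MEFD3plu, Fabp4 led with 3414 ± 600.5, followed by Fabp5 with 1022 ± 180.1, Lpl with 955 ± 67.4, Cd36 with 719 ± 119 and Acsl1 with 425 ± 8.96. In MEFD5plu, Fabp4 was at 5046 ± 502, Lpl at 954 ± 82.9, Fabp5 at 734 ± 45.1, Cd36 at 499.6 ± 46.6 and Acsl1 at 272 ± 28.0. Slc27a1, Slc27a4 and Fabp3 lay between 1.93 and 14.8 CPM per kilobase in both treated conditions. In MEFD3plu the means of Fabp5 and Lpl differed by less than the spread of their samples.

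The changes in time without treatment were mixed. From day 0 to day 3, 2 of the 9 genes were higher, against 31.4% of all genes tested, and 4 were lower, against 28.6%. From day 0 to day 5, 1 was higher, against 24.5%, and 3 were lower, against 21.9%. From day 3 to day 5 without treatment, 3 were higher, against 21.3%, and 4 were lower, against 21.5%. In treated cells from day 3 to day 5, 3 were higher (Angptl4, Fabp3 and Fabp4), against 33.8% of all genes, and 4 were lower (Acsl1, Fabp5, Slc27a1 and Slc27a4), against 29.2%. Treatment by day interaction was called for 6 of the 9, the log2 fold change being greater at day 3 for 4 (Acsl1, Angptl4, Fabp5 and Slc27a4), against 22.6% of all genes, and at day 5 for 2 (Fabp3 and Lpl), against 25.8%. The comparisons within a day and between days share samples.

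With the 5 conditions ordered by mean level for each gene, 19 of 36 neighbouring pairs differed by the edgeR test. The pairs were picked by the same means that were tested, so this number is a description. Of all 15997 genes tested, 6845 to 10071 were called in the comparisons of 2 conditions above. For Lpl and Cd36 the order ran from MEFD3plu over MEFD5plu to MEFD3min, and MEFD3plu and MEFD5plu did not differ by the test. Lpl went on to MEFD0 (called) and MEFD5min (not called), and Cd36 to MEFD5min and MEFD0 with neither step called. For Acsl1 and Fabp5 it ran from MEFD3plu over MEFD5plu to MEFD0, with each step called, and for Fabp4 from MEFD5plu over MEFD3plu to MEFD0, also with each step called. Below MEFD0, Acsl1 came to MEFD5min and then MEFD3min with both steps called, Fabp5 to MEFD5min (not called) and MEFD3min (called), and Fabp4 to MEFD5min (called) and MEFD3min (not called). Angptl4 ran from MEFD5plu over MEFD3plu and MEFD5min to MEFD0 with each step called, and MEFD0 and MEFD3min did not differ by the test. For Slc27a1 the step from MEFD0 to MEFD3min was the only one called, and for Slc27a4 the step from MEFD3plu to MEFD3min. For Fabp3 the step from MEFD3min to MEFD0 was the only one called.

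The genes whose log2 CPM was most like that of each listed gene over the 15 samples are given as a description, with Pearson's r and no test, since all points share the same 5 conditions. For Lpl these were Acss3 (r = 0.998), Agpat2 and Sptlc3, for Cd36 Lcn2 (0.992), Dgat1 and Retn, and for Fabp4 Adig (0.997), Apmap and Ffar2. For Acsl1 they were Il1r1 (0.996), Sdha and Acadl, for Angptl4 Pfkfb3 (0.988), Pla2g16 and Gm37691, and for Fabp5 Gm6166, Pdhx (0.992) and Tank. Slc27a1 was most like Camk1d (0.973), Pip4p1 and Myo5a, Slc27a4 most like Ttyh2 (0.978), Zfand5 and Sprtn, and Fabp3 most like Fkbp8 (0.902), 1810030O07Rik and Hes6. Among the listed genes themselves r was 0.995 for Lpl and Fabp4 and 0.987 for Lpl and Cd36, and it was 0.279 for Lpl and Fabp3 and -0.533 for Lpl and Slc27a1.

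Other genes of the route were taken from 5 lists of 40 genes in all, of which 27 passed the filter. In treated cells 13 of the 27 were upregulated at day 3, against 28.0% of all genes tested, and 8 were downregulated, also against 28.0%. At day 5, 6 were upregulated, against 26.3%, and 9 were downregulated, against 24.2%, so the 8 lower at day 3 and the 6 higher at day 5 were near the share of all genes. Their median log2 fold change was 0.27 at day 3 and -0.019 at day 5. Of 10 genes tested for the maturation and control of lipoprotein lipase, 6 were upregulated and 1 downregulated at day 3, and 4 and 2 at day 5. Of these 10, Apoc1, Apoc2, Apoc3, Angptl8 and Pcsk6 passed the filter through treated samples alone, with at most 13 counts in any untreated sample. The numbers upregulated that include them, here and among the 27, are thus a description. Of 6 other acyl-CoA synthetases, 2 were upregulated and 4 downregulated at day 3, and 0 and 3 at day 5 by edgeR. Of 5 other lipases and lipoprotein receptors, 2 were upregulated and 1 downregulated at day 3, and 1 and 2 at day 5. Of 4 other transporters, 2 were upregulated and 1 downregulated at day 3, and 0 and 2 at day 5. None of these transporters or synthetases was higher at day 5 with an unadjusted p under 0.05 by edgeR either. Of 2 other binding proteins, 1 was upregulated at both days and 1 downregulated at day 3.

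The apolipoproteins C, which ride on lipoproteins and tune lipoprotein lipase, were higher with treatment, at low levels. Apoc2, the activator of the enzyme, had 0 counts in every MEFD3min and MEFD5min sample, 4, 6 and 10 counts in MEFD3plu and 14, 17 and 30 in MEFD5plu. Its treated mean in CPM was 2.17 times the mean untreated floor of 3 counts per library at day 3 and 6.64 times at day 5. Treated against untreated, the adjusted p was 0.00171 at day 3 and 0.000116 at day 5 (edgeR with Benjamini-Hochberg adjustment). Apoc2 passed the filter on low counts through treated samples alone, as did Apoc1, Apoc3 and Angptl8. Calls of these genes as higher with treatment are thus a description. Apoc3, an inhibitor, had 65, 96 and 75 counts in MEFD5plu and 0 in each MEFD5min sample (adjusted p = 1.41e-06, edgeR). The MEFD5plu mean of Apoc3 was 25.9 times the mean floor of MEFD5min. At day 3 it had 7, 2 and 6 counts in MEFD3plu against 1, 0 and 0 in MEFD3min (adjusted p = 0.00894, edgeR). Apoc1 rose by a log2 of 2.29 at day 3 (adjusted p = 0.000124) and 6.62 at day 5 (adjusted p = 3.38e-09, edgeR), from 0.241 to 1.21 CPM and from 0.063 to 7.29 CPM. Without treatment Apoc1 had 8, 12 and 4 counts in MEFD3min against 1, 1 and 0 in MEFD0 (log2 3.42, adjusted p = 0.0017, edgeR). Angptl8, which acts with other ANGPTL proteins on the lipase, had 136, 146 and 128 counts in MEFD5plu against 2, 2 and 2 in MEFD5min (adjusted p = 3.54e-08), and 4, 10 and 4 in MEFD3plu against 2, 10 and 3 in MEFD3min (adjusted p = 0.697, edgeR).

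Of the other named genes, Acsl6, Acsbg1 and Lipg were downregulated on both days, Fabp7 at day 3 and Mfsd2a at day 5, Pcsk6 was upregulated at day 3, and Lrp1 was called on neither day. Acsl6, an acyl-CoA synthetase best known from brain, fell with treatment from 17.8 ± 0.289 to 1.21 ± 0.259 CPM at day 3 (log2 -3.87, adjusted p = 2.4e-12) and from 23.8 ± 1.13 to 5.66 ± 0.928 CPM at day 5 (SD, n = 3; log2 -2.07, adjusted p = 1.7e-09, edgeR with Benjamini-Hochberg adjustment). Acsbg1, another acyl-CoA synthetase, fell by a log2 of 2.28 at day 3 (adjusted p = 1.61e-09) and 1.14 at day 5 (adjusted p = 1.33e-06, edgeR). Lipg, the endothelial lipase, fell from 34.9 to 5.67 CPM at day 3 (log2 -2.62, adjusted p = 4.87e-13) and from 45.6 to 19.99 CPM at day 5 (log2 -1.19, adjusted p = 8.19e-09, edgeR). Fabp7, a binding protein of brain, was at 0.857 CPM in MEFD3min and 0.083 CPM in MEFD3plu (log2 -3.31, adjusted p = 0.000159), and at day 5 the log2 fold change was 0.96 (adjusted p = 0.0977, edgeR). Mfsd2a, a lysolipid transporter, was lower at day 5 (log2 -2.18, adjusted p = 0.00134), with a log2 of -0.57 at day 3 (adjusted p = 0.467). Pcsk6, a proprotein convertase, was higher at day 3 (log2 2.05, adjusted p = 0.000504), with a log2 of 0.11 at day 5 (adjusted p = 0.881, edgeR). It passed the filter through MEFD3plu alone, so its day 3 call is a description. Lrp1, a lipoprotein receptor and the most abundant of these, was called at neither day, with means of 1321 ± 716 CPM in MEFD3min, where replicate 3 had 2148 CPM, and 1728 ± 299 CPM in MEFD3plu (adjusted p = 0.256) and of 624 CPM in MEFD5min and 455 CPM in MEFD5plu (adjusted p = 0.19, edgeR).

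**Figure D5:**
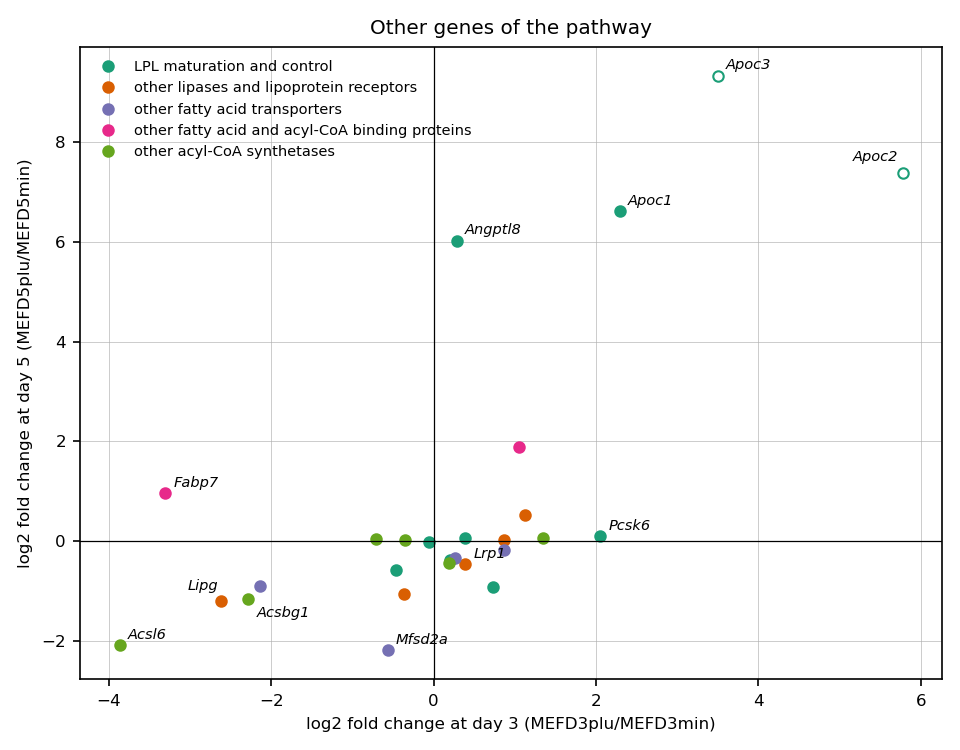
Log2 fold change with treatment at day 3 and at day 5 for the 27 other genes of the route that were tested, coloured by list, with named genes labelled. Open symbols are Apoc2 and Apoc3, which had 0 counts in all untreated samples of at least 1 of these days, so their fitted values are no bounds; the apolipoproteins and Angptl8 lie highest at day 5.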

How the data were processed

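RNA-Seq reads of 100 bases, paired, from 15 MEF samples were aligned by the authors to GRCm38 (mm10) with TopHat2 2.1.0 and assigned to Ensembl genes with HTSeq, and the deposited values are raw counts per gene and sample. The annotation release and the strand setting are not given in the sources used here, and the labels and the study's methods name different library kits, the first without strand marking and the second stranded. Gene names, exons and transcripts came from GENCODE M21 (46005 of 46603 identifiers matched, 598 did not), and promoter stretches from RefSeq. Genes were kept by filterByExpr (15997), scaled by TMM and fitted with the quasi-likelihood model of edgeR 4.0.16 (R 4.3.3, glmQLFit and glmQLFTest) as 5 conditions over all 15 samples. The 7 comparisons were adjusted by Benjamini-Hochberg within each comparison, at 0.05. Levels are CPM, divided by the length of the principal transcript in kilobases where genes are compared. For Pearson's r, CPM values were put on the log2 scale after adding a prior count of 2.

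Totals were 24030558 to 37281126 counts, and floors of 3 counts cover counting error only. Replicates of a condition differed by more than sampling noise (chi-square per degree of freedom 6.12 to 125), so none was merged. Replicate numbers are in the labels. At day 3 the deviations of same-numbered MEFD3plu and MEFD3min samples correlated at 0.143, 0.228 and 0.360, so the numbers may pair these samples. For MEFD3min and MEFD0 the values were 0.084, 0.132 and 0.180, and for MEFD5plu and MEFD5min 0.042, -0.0045 and 0.054. The main fit had no replicate block, and a fit with it was an alternative. Alternatives were DESeq2 1.42.0, a fit of the samples compared only, DESeq2 size factors, total counts alone, no filter, a minimum of 2-fold, the replicate block and leaving out each sample. The 10 genes, the other pathway genes and the marker lists were chosen with earlier results of these data known. Named pathway genes were up to 4 called genes per direction and day with the largest change, and genes called on neither day with a mean over 50 CPM.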

Additional observations from a re-analysis of the deposited data

Results flagged for a closer look

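For 6 of the 9 genes tested, the change with treatment differed between day 3 and day 5 by the interaction test of edgeR, with Benjamini-Hochberg adjustment. The change was greater at day 3 for 4, against 22.6% of all genes tested, and at day 5 for 2, against 25.8%. The treated cells of day 5 were without the factors from day 3, so time and removal of the factors cannot be told apart here. The log2 fold change at day 3 minus that at day 5 was -3.56 for Fabp3 (adjusted p = 5.71e-06), whose 3 treated samples lay below the 3 untreated ones at day 3 and above them at day 5. It was 1.43 for Angptl4 (adjusted p = 0.000212), 1.37 for Fabp5 (adjusted p = 8.06e-05), 0.94 for Acsl1 (adjusted p = 2.93e-05) and 0.74 for Slc27a4 (adjusted p = 0.00204, edgeR), each with a larger change at day 3. For Lpl it was -0.50 (adjusted p = 0.0158), a call lost under total counts alone (adjusted p = 0.0583, edgeR).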

How the results depend on the processing

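Of 1393 recomputed single-gene changes 1318 kept their direction and their side of the threshold, and 75 did not. The numbers upregulated with treatment, 7 of 9 on both days, were 7 whichever sample was left out. With a minimum of 2-fold, the interaction called 2 higher and 1 lower, day 3 against day 0 without treatment 1 higher and 2 lower, day 5 against day 3 1 higher and 1 lower without treatment and 1 lower with it; 11 of 36 neighbouring pairs stayed called. Other pathway genes then numbered 7 higher and 5 lower at day 3 and 5 lower at day 5. No share of all genes is given here at 2-fold or with a sample left out, so those counts are a description. With total counts alone, the median of all genes shifted by -0.16 at day 5, 0.18 in the interaction and -0.12 for untreated day 3 against day 0, and the share of higher calls went from 52.1% to 37.0%, from 46.7% to 59.5% and, for untreated day 5 against day 3, from 49.7% to 62.7%. Members then called were 1 lower at day 5, 1 lower in the interaction, 1 higher from day 0 to day 3 and 2 lower from day 3 to day 5 without treatment. In the same order, 8303, 7956, 9650 and 6866 of 15997 genes were called in either direction, of which 37.0%, 59.5%, 43.9% and 62.7% were higher. A fit of the samples compared only called 1 higher from day 0 to day 3, where 8306 of 14669 genes were called in either direction, 50.5% of them higher. With the replicate block the pairing gave 2 lower at day 3 (Slc27a1 added), and it changed no other count by over 1.5 times. At day 3 the fit with the block called 9452 of 15997 genes in either direction, 50.1% of them higher and the rest lower. Leaving out 1 sample gave 1 to 2 lower at day 3, 0 to 1 lower at day 5, 1 to 3 higher from day 0 to day 3, and 2 to 4 lower from day 3 to day 5 without treatment. Reversals were all of differences not called: the Slc27a1 interaction was 0.032 by DESeq2, 0.031 with its size factors, 0.034 in the fit of the samples compared, 0.18 under total counts and -0.17 to 0.13 with a sample left out, and Slc27a4 at day 5 was -0.052 under total counts and -0.017 to 0.23 with a sample left out. With a sample left out, Lpl between the treated days was -0.053 to 0.068, Angptl4 from day 0 to day 3 -0.45 to 0.13, the Cd36 interaction -0.69 to 1.00 and untreated Cd36 from day 3 to day 5 -1.22 to 0.47. The causes were not tested. Depth limits Gpihbp1 and the untreated levels of Cd36.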
